A study of Rattus norvegicus with 6 samples.

Results

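The heat shock chaperones of the cytosol and mitochondria were described across the messenger RNA of primary rat ovarian granulosa cells. Members were taken by gene symbol: Hsp90 genes beginning Hsp90a, the numbered Hspa and Hspb genes, Hspd1, Hspe1, Hsph1 and the numbered Dnaja, Dnajb and Dnajc genes. The endoplasmic reticulum chaperones Hspa5, Hspa13, Dnajb9, Dnajb11 and Dnajc3 were left out. The symbols chose 65 genes, and 60 of the 17525 genes in the table remained after those 5 were removed. No measured value entered that rule, but it was set with earlier results of these data known.

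The libraries labelled ATR are 3, and the 3 libraries labelled Control are not analysed here. The series' title concerns atrazine, a triazine herbicide, but no label spells out ATR. The sources used here give neither a dose nor a duration, and do not say if the rats or the cultures met the compound. The cells came from SD rats of 21 days that had received PMSG (equine serum gonadotropin, which stimulates follicle growth) at 60 IU and were killed after 48 h, and were dispersed with a pancreatic enzyme and EDTA and cultured in medium with serum. The submitters stained the cultures for FSHR, the receptor for follicle-stimulating hormone. Nothing in the labels says whether the 3 libraries are from separate animals or cultures, so any p-value below measures only the spread between these libraries, which may be technical. With 1 group of libraries, nothing below measures what an exposure did.

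Chaperones bind unfolded or partly folded proteins and help them fold, cross membranes or reach the proteasome. Hsp70 proteins cycle between open and closed states as they bind and split ATP; J proteins deliver the substrate and start the hydrolysis, and Hsp110 proteins release the ADP. Hsp90 then matures kinases and steroid receptors, small heat shock proteins hold unfolded chains without using ATP, and in mitochondria the Hspd1 and Hspe1 proteins form a folding chamber with its lid. In stressed cells the factor Hsf1 binds inverted repeats of the letters GAA, called heat shock elements, in front of many of these genes. Granulosa cells depend on steroid receptors and on the import of proteins into mitochondria, where steroid synthesis starts.

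Library depth was 19020464 reads for ATR 1, 18677194 for ATR 2 and 19170515 for ATR 3. Among 9 granulosa markers 7 averaged at least 1 TPM (the authors' value of transcript abundance, scaled for transcript length and depth), led by Gja1 and Inha. Fshr stood at 7.38, 5.25 and 4.77 TPM in ATR 1, 2 and 3, while Amh and the aromatase gene Cyp19a1 were at no more than 0.14 and 0.09 TPM. The summed granulosa markers were 3177, 2876 and 2772 TPM, most of it Gja1 at 2036, 1863 and 1821 TPM. Other lineages were measured beside them: 5 of 7 surface epithelium markers (summed 2250, 2090 and 2171 TPM, with Epcam and Krt19 near 0), 5 of 5 stromal markers, 6 of 6 smooth muscle and pericyte markers and 3 of 4 leukocyte markers (summed 91.4, 116 and 114 TPM, with Ptprc under 1 TPM) averaged at least 1 TPM. The smooth muscle and pericyte markers had the largest sum of these lists, 17461, 16307 and 16152 TPM, above that of the granulosa markers. Among them Tagln had the highest mean of all genes, 10890.5 TPM. Of the 3 endothelial markers Kdr stood at 3.55, 3.12 and 3.17 TPM, and Pecam1 and Cdh5 at no more than 0.16 TPM. The theca gene Cyp17a1 and the oocyte genes Gdf9 and Ddx4 were at or near 0, while the globin gene Hba-a1 stood at 537, 424.5 and 409 TPM with Hbb under 1 TPM. In bulk RNA, fewer cells of a type and less RNA per cell cannot be told apart.

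The heat shock chaperones were broadly expressed. Of the 60 members 56 averaged at least 1 TPM, against 71.4% of all 17525 genes, and 16 averaged at least 100 TPM, against 10.7% of all genes. The median member stood at 32.7 TPM and the median of all genes at 10.1 TPM. Together the members held 0.763%, 0.753% and 0.775% of all TPM in ATR 1, 2 and 3, a mean of 0.764% ± 0.0111 (SD, n = 3). No member was at 0 in any library. The members without a J domain numbered 21 and held 5347, 5345 and 5534 TPM, and the 39 J proteins held 2286, 2185 and 2217 TPM.

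The spread between the libraries was tested gene by gene. A chi-square test compared a gene's 3 counts with the depth of the libraries, with Benjamini-Hochberg adjustment over all 13309 genes that had at least 30 reads. It compares libraries and not conditions. Of the 59 members tested 16 passed an adjusted p of 0.05, which is 27.1% and close to the 23.2% of all genes tested. Among members at 100 TPM or more 9 of 16 passed (56.2%, against 50.8% of all genes at that level), and among members at 10 to 100 TPM 3 of 30 passed (10.0%, against 20.5%). At 1 to 10 TPM 2 of 10 passed (20.0%, against 17.1%). Of the 3 members tested below 1 TPM Hspa12a and Hspa12b passed. The share of all genes at that level was not taken, so these 2 are not read as a difference. The median SD of log2(CPM + 0.5), where CPM is the count scaled to a common depth, was taken over genes averaging at least 1 CPM. It was 0.07 for the 58 members and 0.08 for all 12591 genes at that level. At 10 to 100 TPM it was 0.07 for members and 0.07 for all genes. The passing members were 11 of the 21 without a J domain and 5 of the 38 J proteins tested.

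**Figure D1:**
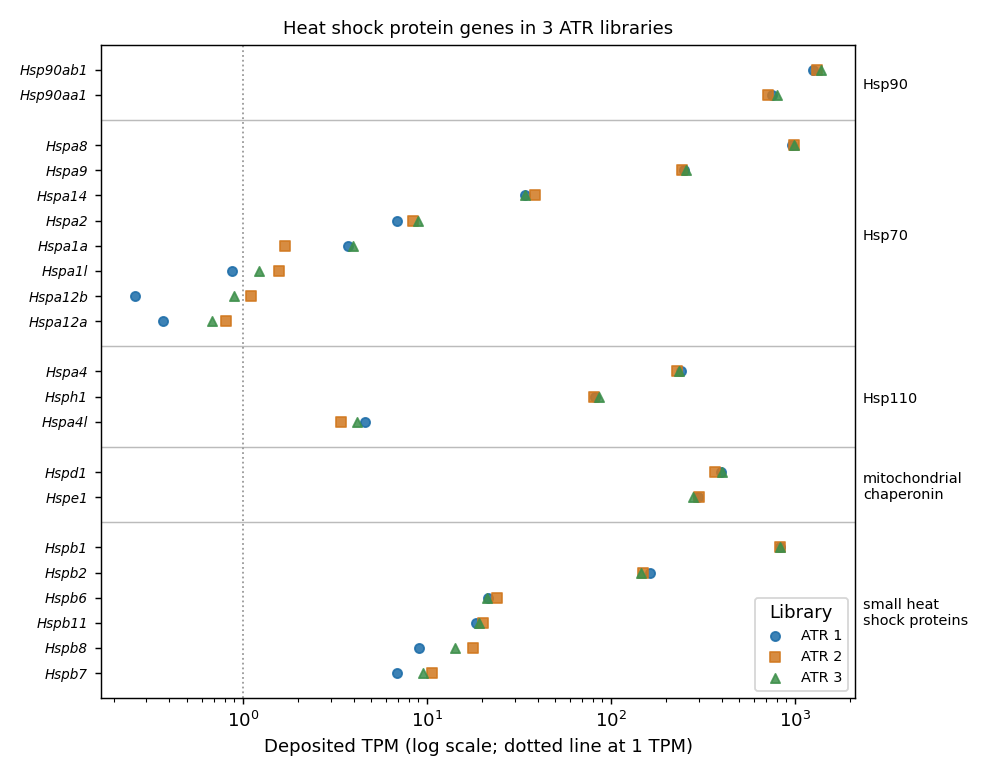
Deposited TPM on a log axis of the 21 members without a J domain, 1 row a gene, grouped by family, with 1 point for each ATR library. Hsp90ab1, Hspa8, Hspb1 and Hsp90aa1 lie farthest right, while Hspa1a, Hspa12a and Hspa12b lie near the dotted line at 1 TPM with their points apart.

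Hsp90ab1, the constitutive cytosolic Hsp90, was the highest member. It stood at 1262, 1318 and 1388 TPM in ATR 1, 2 and 3, a mean of 1323 ± 63.4 TPM (SD, n = 3) and rank 99 among all genes. Hsp90aa1, the stress-inducible cytosolic Hsp90, stood at 754, 713 and 799 TPM, a mean of 755 ± 42.9 TPM and rank 204. The constitutive gene exceeded the inducible one in every library, by 1.67, 1.85 and 1.74 times on the TPM scale. Both were highest in ATR 3, Hsp90ab1 being lowest in ATR 1 and Hsp90aa1 lowest in ATR 2. The ratio of depth-scaled reads was 1.13 for Hsp90ab1 between ATR 3 and ATR 1 (exact Clopper-Pearson 95% interval 1.11 to 1.15), and 1.13 for Hsp90aa1 between ATR 3 and ATR 2 (1.10 to 1.15). These intervals cover counting error only, as do all those below, since reads without molecular identifiers are not independent molecules. Both genes passed the chi-square test with Benjamini-Hochberg adjustment, at adjusted p = 1.69e-44 for Hsp90ab1 and 1.13e-30 for Hsp90aa1. Both have counts that are not whole numbers, so reads shared with other genes may enter them, and their levels are uncertain to that extent.

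Hspa8, the constitutive Hsp70 of the cytosol, outnumbered the stress-inducible Hspa1a by more than 2 orders of magnitude. Hspa8 stood at 962, 989 and 987 TPM in ATR 1, 2 and 3, and Hspa1a at 3.73, 1.69 and 3.96 TPM. Hspa8 over Hspa1a was 258, 585 and 249 on the TPM scale, highest in ATR 2, where Hspa1a was lowest. Hspa1a had 82.1, 37.3 and 89.6 estimated reads. ATR 2 held 0.459 times the depth-scaled reads of ATR 1 (95% interval 0.302 to 0.684), and ATR 3 held 2.39 times those of ATR 2 (1.62 to 3.61). The adjusted p of Hspa1a was 1.34e-04 by the chi-square test with Benjamini-Hochberg adjustment, and 0.774 without ATR 2. Hspa8 differed by 1.05 times between ATR 2 and ATR 1 (1.03 to 1.07), with an adjusted p of 1.50e-06 by the same chi-square test and 0.888 without ATR 1. Hspa1b, a near-identical copy that neighbours Hspa1a in the RefSeq annotation of assembly GRCr8, has no row of its own among those used here. Hspa1a's counts are also not whole numbers, so its level is uncertain. The counts of Hspa8 are not whole numbers either, so reads shared with other genes may enter its level and the ratio.

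The other Hsp70 genes ran from the mitochondrial member down to genes near the limit of detection. Hspa9 encodes mortalin, the Hsp70 of the mitochondrial matrix that pulls proteins in through the inner membrane. It stood at 251, 243 and 256 TPM, a mean of 250.2 ± 6.50 TPM (SD, n = 3), and Hspa8 exceeded it by 3.84, 4.06 and 3.85 times. Its adjusted p was 0.0111 by the chi-square test with Benjamini-Hochberg adjustment, 0.838 without ATR 3 and 0.0575 where libraries were scaled by their totals alone. Hspa14, which works at the ribosome, stood at 34.3, 38.7 and 34.1 TPM, and Hspa2, known for its role in spermatogenesis, at 6.86, 8.45 and 8.91 TPM. Hspa1l, a testis-enriched gene beside Hspa1a, stood at 0.88, 1.58 and 1.22 TPM. Their adjusted p values by the same chi-square test were 0.119, 0.0817 and 0.305, above the threshold.

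The divergent Hsp70 genes Hspa12a and Hspa12b, named here after their values were seen, were the lowest of the family and were both low in ATR 1. Hspa12b, known from endothelium, had 7 reads in ATR 1, 31 in ATR 2 and 25 in ATR 3. Hspa12a had 19, 42 and 36 reads. ATR 2 held 4.50 times the depth-scaled reads of ATR 1 for Hspa12b (95% interval 1.95 to 12.1) and 2.25 times for Hspa12a (1.28 to 4.09). The adjusted p by the chi-square test with Benjamini-Hochberg adjustment was 0.00363 for Hspa12b and 0.0458 for Hspa12a. Without ATR 1 these were 0.684 and 0.734, and Hspa12a also missed the threshold without ATR 2, at 0.113. Of the 3 endothelial markers, Kdr stood at 3.55, 3.12 and 3.17 TPM in ATR 1, 2 and 3, Pecam1 at 0, 0.16 and 0.05 TPM and Cdh5 at 0, 0.04 and 0.04 TPM. Their summed level was 3.55, 3.32 and 3.26 TPM, and the part of endothelial cells in the spread of Hspa12b was not tested.

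The Hsp110 genes, whose proteins are the nucleotide exchange factors of Hsp70, were led by Hspa4. It stood at 241, 228 and 235 TPM, a mean of 235 ± 6.31 TPM (SD, n = 3). Hsph1, the heat-inducible Hsp105, stood at 82.5, 80.7 and 86.5 TPM, and Hspa4l, known from testis, at 4.64, 3.44 and 4.18 TPM. Hspa4 exceeded Hsph1 by 2.92, 2.82 and 2.72 times. Of the 3 genes Hsph1 alone passed the chi-square test, at a Benjamini-Hochberg adjusted p of 0.0334, with ATR 3 at 1.08 times the depth-scaled reads of ATR 1 (95% interval 1.02 to 1.14). Without ATR 1 its adjusted p was 0.0553, without ATR 3 it was 0.998 and with library totals it was 0.0821. Hspa4 and Hspa4l had adjusted p of 0.0789 and 0.282 in the same chi-square test.

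Hspd1, which encodes the mitochondrial chaperonin Hsp60, and Hspe1, which encodes its lid Hsp10, neighbour each other with no other gene starting between them in RefSeq. Hspd1 stood at 395, 368 and 402 TPM in ATR 1, 2 and 3, a mean of 388 ± 17.7 TPM (SD, n = 3). Hspe1 stood at 298, 299.8 and 281 TPM, a mean of 293 ± 10.4 TPM. Hspd1 was thus the higher in every library, with a ratio of 1.33, 1.23 and 1.43. Hspd1 passed the chi-square test with Benjamini-Hochberg adjustment (adjusted p = 1.40e-06), with ATR 3 at 1.10 times the depth-scaled reads of ATR 2 (95% interval 1.06 to 1.13), while Hspe1 missed the threshold at an adjusted p of 0.493. Whether the genes differ in their spread was not tested.

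The promoters of these genes are shown because their heat shock elements set 5 members apart from the rest by sequence. RefSeq promoter windows of assembly GRCr8, of 250 bases before and 50 after each gene's start, were found for 46 of the 60 members. Each window was searched on both strands for 3 alternating units, GAANNTTCNNGAA or TTCNNGAANNTTC, and for 2 units, GAANNTTC or TTCNNGAA. A 3-unit match contains overlapping 2-unit matches, and 3-unit matches may overlap each other. The 3-unit match was in 5 of the 46 member promoters (10.9%), in 267 of all 33469 RefSeq promoters (0.798%) and in 77 of the 15247 promoters of genes in the table (0.505%). The 2-unit match was in 15 of 46 (32.6%), against 15.9% of all promoters and 12.5% of those of genes in the table. The capitals below mark the 3-unit matches, and each stretch runs 5′ to 3′ along the gene's own strand.

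The window of Hspa8 holds 2 separate 3-unit matches, at -55 to -43 and at -213 to -201 from its start. The stretches from -100 to -1 (chr8:50080414-50080513, GRCr8, plus strand) and from -250 to -151 (chr8:50080264-50080363, plus strand) read as follows.
Hspa8 near the start: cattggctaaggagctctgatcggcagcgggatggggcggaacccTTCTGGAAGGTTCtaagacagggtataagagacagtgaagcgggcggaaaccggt
Hspa8 upstream: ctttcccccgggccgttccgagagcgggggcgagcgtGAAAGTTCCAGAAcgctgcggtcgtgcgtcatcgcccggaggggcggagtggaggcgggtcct

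Hspe1 and Hspd1 are read in opposite directions from a shared stretch, and their matches are the same 18 bases, chr9:64084262-64084279, read on opposite strands. The Hspe1 stretch is chr9:64084227-64084326 (plus strand, -100 to -1) and the Hspd1 stretch is chr9:64084188-64084287 (minus strand, -250 to -151). In Hspe1 the overlapping matches lie at -65 to -53 and -60 to -48, and in Hspd1 at -242 to -230 and -237 to -225.
Hspe1: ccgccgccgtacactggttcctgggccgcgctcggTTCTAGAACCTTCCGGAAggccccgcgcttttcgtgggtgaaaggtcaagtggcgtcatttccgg
Hspd1: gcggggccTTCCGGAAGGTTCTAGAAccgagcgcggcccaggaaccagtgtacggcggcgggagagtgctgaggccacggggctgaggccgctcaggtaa

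Hsph1 has its match at -36 to -24, the closest of these before a start, in chr12:10427268-10427367 (plus strand, -100 to -1). Dnaja1 holds the remaining match, at 9 to 21 after its start.
Hsph1: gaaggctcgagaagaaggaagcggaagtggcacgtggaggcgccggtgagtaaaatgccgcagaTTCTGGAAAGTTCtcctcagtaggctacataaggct

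The 5 members with a 3-unit match had a median of 354 TPM and ran from 83.2 to 979 TPM. The 10 with a 2-unit match alone had a median of 26.5 TPM (4.09 to 831), and the 31 with neither had a median of 27.6 TPM (0.693 to 1323). Of these groups 4 of 5, 2 of 10 and 8 of 31 passed the chi-square test of spread, beside 23.2% of all genes tested and 50.8% of all genes at 100 TPM or more, where 4 of the 5 lie. These are descriptions of letters and levels with no test between the groups. Hsp90ab1, the highest member, and the stress-inducible Hspa1a had no match, which says only that these letters are not in their windows. The stress-inducible Dnajb1 had a 2-unit match alone, so a 3-unit match here does not mark out the inducible members. Hsp90aa1, Hspa12a, Hspb2, Hspb11 and 10 J protein genes have no entry.

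**Figure D2:**
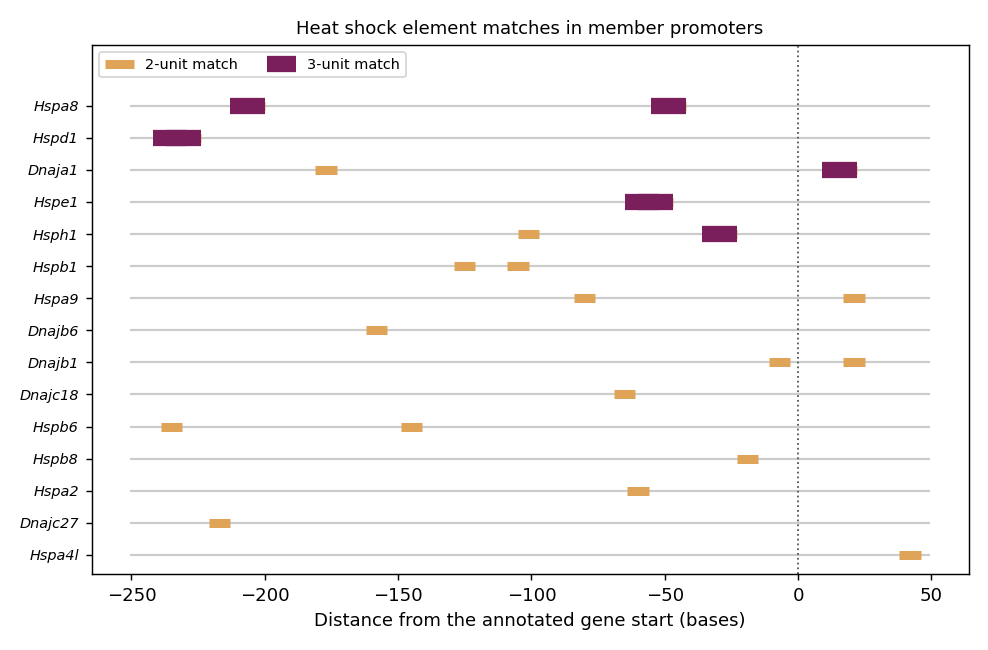
Positions of heat shock element matches in the 15 member promoters that hold any, 1 row a gene, against the distance in bases from the annotated start (dotted line); orange bars are 2-unit and purple bars 3-unit matches. The 3-unit matches lie before the start in Hspa8, Hspd1, Hspe1 and Hsph1 and after it in Dnaja1.

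Hspb1 encodes the small heat shock protein Hsp27 that also protects actin filaments. By TPM it had the smallest coefficient of variation of the 16 members at 100 TPM or more, 0.485%. It stood at 831, 827 and 835 TPM in ATR 1, 2 and 3, a mean of 831 ± 4.03 TPM (SD, n = 3), and had a chi-square adjusted p of 0.389. By the SD of log2(CPM + 0.5) Dnaja2 was lower, at 0.0221 against 0.0228 for Hspb1. Hspb2, a small heat shock protein of muscle, stood at 164, 150.1 and 147 TPM, with an adjusted p of 0.355 in the same test. Hspb6, known in smooth muscle, stood at 21.4, 24.1 and 21.3 TPM, and Hspb11, which RefSeq now names Ift25 after its place in intraflagellar transport, at 18.4, 20.2 and 19.3 TPM. Neither passed, at chi-square adjusted p of 0.416 and 0.845. Cryab, the lens and muscle crystallin that is a small heat shock protein by structure and neighbours Hspb2, is no member by its symbol. It stood at 1329, 1648 and 1452 TPM, a mean of 1476 ± 161 TPM, above the mean of every member, with ATR 2 at 1.27 times the depth-scaled reads of ATR 1 and a chi-square Benjamini-Hochberg adjusted p of 1.37e-76.

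Hspb8 and Hspb7 were the small heat shock proteins that varied between the libraries, both lowest in ATR 1 and highest in ATR 2. Hspb8, the partner of Bag3 in clearing damaged proteins by autophagy, had 143, 282 and 228 reads and 9.13, 17.9 and 14.2 TPM. The depth-scaled reads of Hspb8 were 2.00 times those of ATR 1 in ATR 2 (95% interval 1.63 to 2.47) and 1.60 times in ATR 3 (1.29 to 1.98). Hspb7, known from heart muscle, had 108, 167 and 154 reads and 6.92, 10.6 and 9.60 TPM, with ATR 2 at 1.57 times ATR 1 (1.23 to 2.02). The chi-square Benjamini-Hochberg adjusted p was 1.08e-09 for Hspb8 and 0.00544 for Hspb7. Without ATR 1 these were 0.0742 and 0.682.

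Some stromal markers followed the same order of libraries. Thy1 stood at 23.2, 104 and 82.7 TPM, Prrx1 at 12.03, 47.0 and 29.2 TPM and Pdgfra at 1.36, 5.27 and 3.67 TPM. The other stromal markers did not follow it, Ogn being at 204, 181 and 179 TPM and Dcn at 25.3, 22.8 and 21.2 TPM. All 5 summed to 265, 361 and 315 TPM, and the 6 smooth muscle and pericyte markers to 17461, 16307 and 16152 TPM. Of those 6, Des at 7.22, 20.4 and 7.69 TPM and Notch3 at 1.24, 1.42 and 1.37 TPM followed the order. The others did not by TPM, Myh11 being at 67.45, 49.1 and 55.23 TPM and Cnn1 at 175.9, 202.9 and 171.7 TPM. By depth-scaled counts Cnn1 did follow the order, at 117.5, 138.5 and 117.9 CPM. The 4 leukocyte markers also followed it as a sum, at 91.4, 116 and 114 TPM, but singly only Cd14 did, at 18.05, 21.89 and 18.6 TPM. The part of these cells in the spread of Hspb8, Hspb7, Hspa12a and Hspa12b was not tested.

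**Figure D3:**
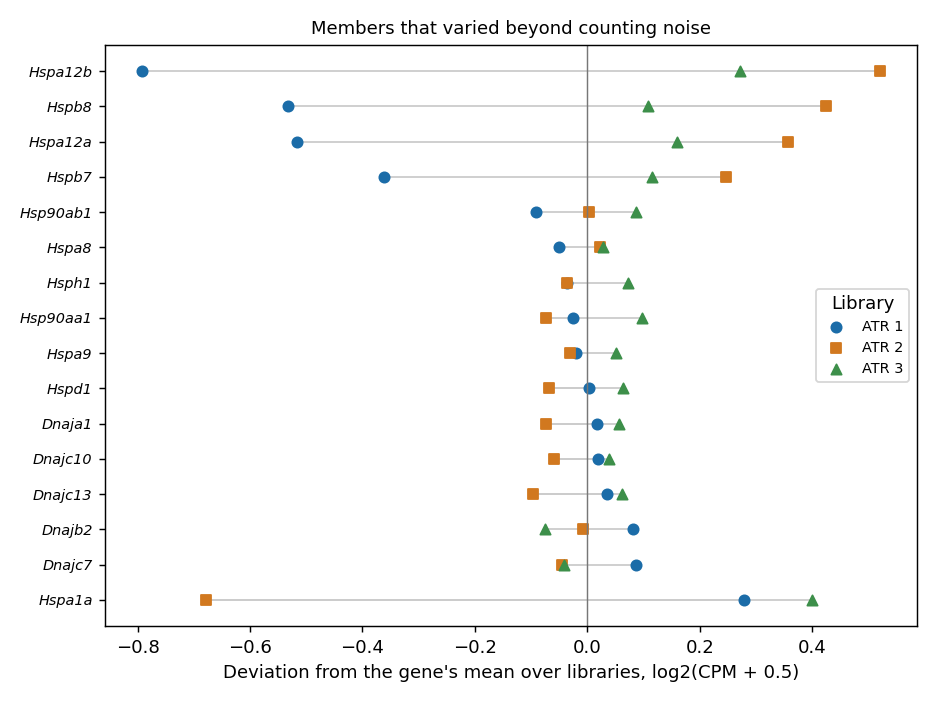
Deviation of each ATR library from the gene's mean over the 3 libraries, in log2(CPM + 0.5), for the 16 members that passed the chi-square test. Hspa12b, Hspb8, Hspa12a and Hspb7 have ATR 1 far to the left, at -0.79, -0.53, -0.52 and -0.36, and Hspa1a has ATR 2 far to the left, at -0.68; the other 11 stay within 0.10 of their mean.

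The J proteins are named by the layout of their domains. Class A, which has 4 members, had a median of 120 TPM, class B with 9 members a median of 51.0 TPM and class C with 26 members a median of 28.1 TPM. The label names the cytosol and mitochondria, but the symbols also bring in J proteins of other compartments, such as Dnajc10, Dnajc1, Dnajb12 and Dnajb14 of the endoplasmic reticulum.

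Dnaja1 and Dnaja2, the class A partners of Hspa8 in the cytosol, led the family. Dnaja1 stood at 364, 334 and 363 TPM in ATR 1, 2 and 3, a mean of 354 ± 17.3 TPM (SD, n = 3). Dnaja2 stood at 191, 181 and 183 TPM, so Dnaja1 was 1.91, 1.85 and 1.98 times as high. Dnaja1 was lowest in ATR 2, with ATR 3 at 1.09 times its depth-scaled reads (95% interval 1.05 to 1.14). Its chi-square Benjamini-Hochberg adjusted p was 2.98e-04, and 0.421 without ATR 2. Dnaja2 had a chi-square adjusted p of 0.668.

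Dnajb1, the stress-inducible Hsp40, was among the steadiest members at 66.8, 68.0 and 67.1 TPM, with a coefficient of variation of 0.921% and a chi-square adjusted p of 0.752. Dnaja1 exceeded it by 5.45, 4.91 and 5.41 times. Dnajb4, a relative of Dnajb1, was the highest of class B, at 174, 159 and 159 TPM. Its chi-square Benjamini-Hochberg adjusted p was 0.0514, just above the threshold. Dnajb2, which carries clients towards the proteasome through its ubiquitin-binding motifs, stood at 133, 120.3 and 114 TPM. Its adjusted p was 0.00282 by the same chi-square test, with ATR 3 at 0.897 times the depth-scaled reads of ATR 1 (95% interval 0.849 to 0.947), and it was 0.321 without ATR 1 and 0.110 without ATR 3. Dnajb6, which keeps polyglutamine proteins from aggregating, stood at 94.8, 88.2 and 98.9 TPM with an adjusted p of 0.340 in the chi-square test.

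Of the class C proteins, Dnajc7, Dnajc10 and Dnajc13 passed the test. Dnajc7, which binds both Hsp70 and Hsp90 through its repeats, stood at 172, 154 and 153 TPM, highest in ATR 1. ATR 2 held 0.913 times the depth-scaled reads of ATR 1 (95% interval 0.861 to 0.967), with a chi-square Benjamini-Hochberg adjusted p of 0.0110 that was 0.971 without ATR 1. Dnajc10, a disulfide reductase of the endoplasmic reticulum, stood at 136, 126 and 134 TPM, and Dnajc13, which acts at endosomes, at 26.6, 23.8 and 26.4 TPM. Both were lowest in ATR 2. Their chi-square Benjamini-Hochberg adjusted p values were 0.0114 and 0.0145, and 0.735 and 0.803 without ATR 2. Dnajc8, which binds splicing factors, stood at 118, 119.8 and 115 TPM, and Dnajc5, the cysteine string protein of secretory vesicles, at 90.1, 92.9 and 86.2 TPM. Neither passed, at chi-square adjusted p of 0.698 and 0.437.

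None of the 7 mitochondrial J proteins passed the chi-square test, their summed level being 253, 266 and 253 TPM. Of all genes at 10 to 100 TPM, where 6 of the 7 lie, 20.5% passed, so a count of 0 in 7 is not read as a difference. Their adjusted p values ran from 0.2005 to 0.875. Dnajc11, of the inner membrane organising system, stood at 65.6, 67.0 and 68.7 TPM, and Dnaja3, the matrix partner of Hspa9, at 56.4, 57.3 and 53.4 TPM. Hspa9 exceeded Dnaja3 by 4.44, 4.25 and 4.80 times. Dnajc15 and Dnajc19, which belong to the import motor of the inner membrane, stood at 50.5, 54.6 and 50.5 TPM and at 44.7, 52.1 and 50.6 TPM. Dnajc30 stood at 14.6, 15.8 and 13.9 TPM, Dnajc4 at 15.1, 14.7 and 11.0 TPM and Dnajc28 at 5.74, 4.98 and 5.19 TPM. All 7 stood below Hspa9 in every library.

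The lowest J proteins, named here after their values were seen, were Dnajc5b and Dnajb13. Dnajc5b, a testis relative of Dnajc5, had 2, 10 and 2 reads and was the 1 member too low to be tested with at least 30 reads. Dnajb13, part of sperm flagella, stood at 0.87, 0.47 and 0.74 TPM. The remaining 19 J proteins averaged 3.90 to 53.4 TPM and did not pass the chi-square test. Every J protein that passed was named above, so that count was fixed by the choice of names. It is not read as a difference from all genes, of which 20.5% passed at 10 to 100 TPM and 17.1% at 1 to 10 TPM.

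**Figure D4:**
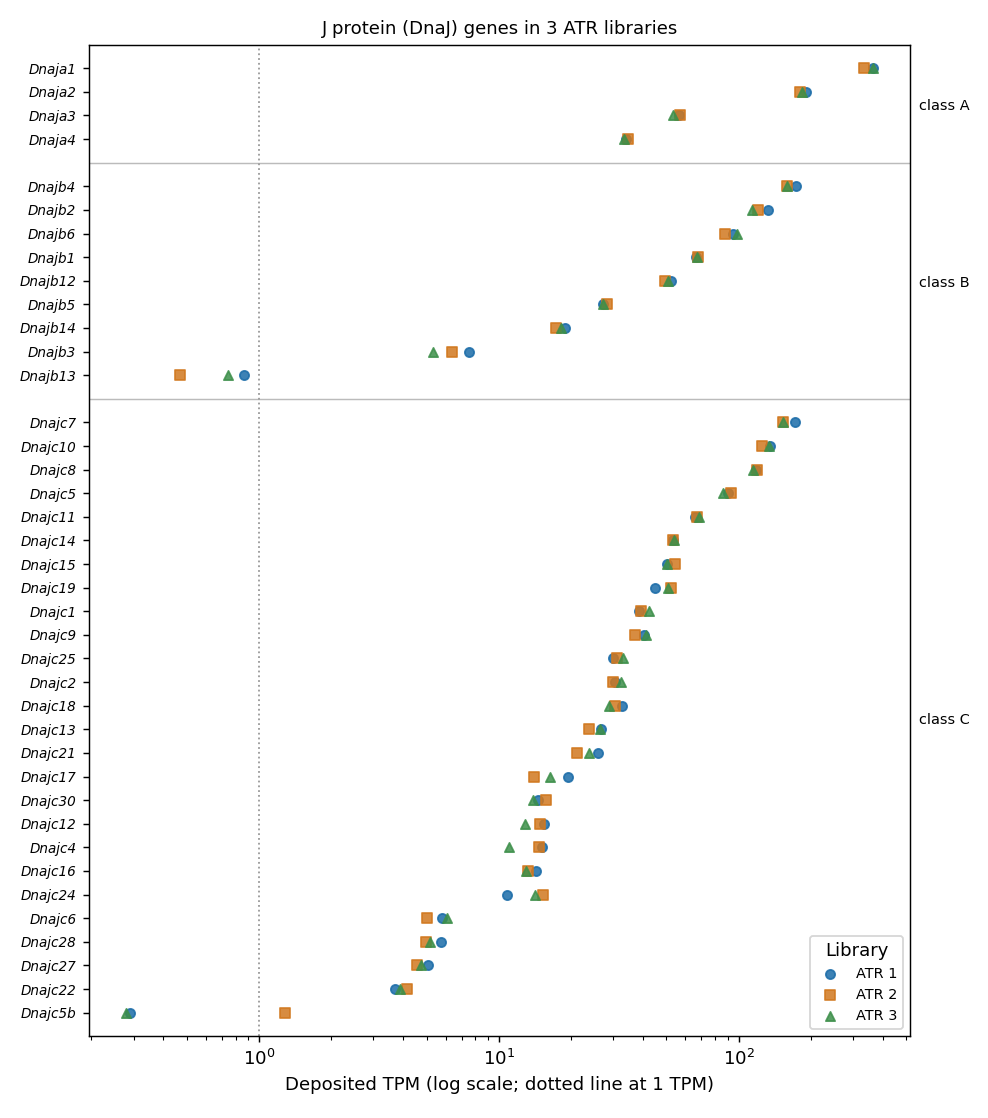
Deposited TPM on a log axis of the 39 J protein genes, 1 row a gene, grouped by class, with 1 point for each ATR library. Dnaja1 lies farthest right at 334 to 364 TPM, and Dnajc5b and Dnajb13 lie at or left of the dotted line at 1 TPM for most libraries.

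The deposited TPM and the counts did not always rank the libraries alike. Dnaja1 was highest in ATR 1 by TPM and in ATR 3 by depth-scaled counts. Each gene's ratio of count to TPM, which carries the transcript length, was divided by the median ratio of its library. That division removes any difference of scale that all genes of a library share. What remained for Dnaja1 had a coefficient of variation of 0.0775%. This median-scaled ratio varied by more than 1% in 7 of 51 members at 5 TPM or more (13.7%), against 18.8% of all genes at that level. Dnajc21, a factor of ribosome assembly named here for this, had the largest such variation, 5.29%. Its TPM was 25.9, 21.3 and 23.9 in ATR 1, 2 and 3, but its reads were 375, 344 and 375. Dnajb6 varied by 2.95% and Dnaja3 by 1.81%.

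**Figure D5:**
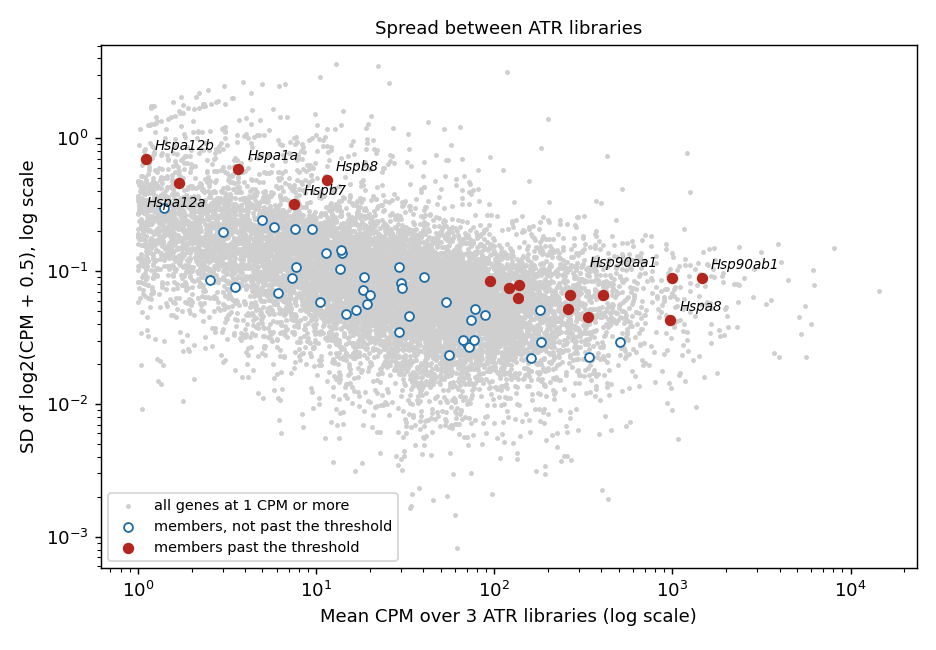
Standard deviation of log2(CPM + 0.5) over the 3 ATR libraries against mean CPM, both on log axes, for all genes at 1 CPM or more (grey), members that did not pass the chi-square test (open circles) and members that did (red). Most members lie within the grey cloud, and Hspa12b, Hspa1a, Hspb8, Hspa12a and Hspb7 are the plotted members highest on the SD axis, with Hspb7 the lowest of these at 0.32.

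The genes around the chaperones were described from lists. Of 65 found, outside the endoplasmic reticulum, 62 averaged at least 1 TPM, and 14 of the 64 tested passed the chi-square test of spread (21.9%, against 23.2% of all genes). Hsf1, the factor that switches heat shock genes on, stood at 34.9, 36.8 and 31.4 TPM and Hsf2, a second such factor, at 30.4 ± 0.474 TPM (SD, n = 3). Hsbp1, which binds heat shock factors, averaged 272 ± 7.67 TPM. The immediate early genes Ier5 and Ier2, known to act on Hsf1, averaged 51.6 ± 1.26 and 36.2 ± 3.64 TPM. Of these Hsbp1 and Ier2 passed, at chi-square Benjamini-Hochberg adjusted p of 0.0276 and 0.0128, and they were 2 of the 8 tested.

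The co-chaperones of Hsp70 were all above 1 TPM. St13, which stabilises Hsp70 bound to ADP, averaged 260 ± 11.2 TPM (SD, n = 3), Bag6 169 ± 4.79, the ubiquitin ligase Stub1 163 ± 5.66 and Sgta 114 ± 0.548 TPM. St13 was the 1 of 12 that passed (8.33%, against 23.2% of all genes tested), at a chi-square Benjamini-Hochberg adjusted p of 0.00471. Of the Hsp90 co-chaperones 15 of 16 averaged at least 1 TPM and 2 passed (12.5%), Cdc37 and Ahsa1. No test compared these shares with that of all genes, so neither is read as a difference. Cdc37, which brings kinases to Hsp90, averaged 321 ± 16.4 TPM, Ptges3, which binds the closed form, 303 ± 3.65, Stip1, the bridge between Hsp70 and Hsp90, 234 ± 5.03 and Ahsa1, which activates the ATPase, 155 ± 10.9 TPM. Both Hsp90 genes thus stood above each of their co-chaperones in TPM.

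Of 13 other mitochondrial folding and proteolysis genes 13 averaged at least 1 TPM. Yme1l1 and Trap1 were the 2 that passed (15.4%, against 23.2% of all genes tested). Grpel1, the exchange factor of Hspa9, averaged 121 ± 2.96 TPM (SD, n = 3), the protease Yme1l1 112 ± 7.39, the import receptor Tomm70 86.7 ± 3.86 and the protease Lonp1 79.1 ± 1.18 TPM. The cytosolic chaperonin and prefoldin, which fold actin and tubulin, had 14 of 14 genes above 1 TPM with a median of 199.9 TPM, and 6 passed (42.9%). Of these genes 12 averaged at least 100 TPM, a level where 50.8% of all genes passed. Cct5 averaged 362 ± 11.3 TPM, Cct3 293 ± 12.4, Cct2 291 ± 3.35 and Cct6a 266 ± 8.56 TPM. Of the 7 endoplasmic reticulum chaperones listed 5 passed (71.4%), and 5 averaged at least 100 TPM. Hspa5 averaged 1302 ± 98.1 TPM and Hsp90b1 1198 ± 121.5 TPM, Hsp90b1 standing at 1254, 1058 and 1281 TPM in ATR 1, 2 and 3 with a chi-square Benjamini-Hochberg adjusted p of 1.45e-128. Hyou1 averaged 339.6 ± 15.5 and Dnajb11 218 ± 12.9 TPM.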

How the data were processed

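RNA-seq of poly(A) RNA from 3 ATR libraries was used, with libraries read as pairs on an MGI2000 and no strand-marking step described, per the labels' protocols. The authors deposited TPM and estimated counts for each gene, per the file headers. Named in the submitters' processing notes are StringTie 2.1.5, HISAT2 2.2.1 and fastp 0.20.1, and the builds GRCm38 and Rnor_6.0, without roles. The assignment of shared reads is not described, and 12 of the 60 members have counts more than 0.001 from a whole number in some library (20.0%, against 24.2% of all genes). Those estimated counts were then rounded. They were scaled with the TMM factors of edgeR 4.0.16 (R 4.3.3), on genes kept by filterByExpr with a minimum count of 10, and each gene with at least 30 reads in all was tested with a chi-square test in scipy 1.17.1, with Benjamini-Hochberg adjustment over all of them and a threshold of 0.05. The test was run on simulated counts that held counting noise and planted changes. Those counts had no other spread between libraries, so they do not show how the test behaves where such spread exists. A chi-square test takes spread beyond counting as a difference between libraries, so abundant genes pass at small ratios. Intervals are exact Clopper-Pearson 95% intervals on read ratios. A pseudocount of 0.5 CPM was used on the log2 scale. The test of ATR against Control was not run because Control libraries are not analysed here. Alternatives were other scalings (DESeq2 1.42.0 size factors, library totals), other read minimums, whole counts alone, other TPM limits and leaving out each library.

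Members and gene lists were chosen with earlier results of these data known. Named are all members without a J domain at 1 TPM or more, the 12 highest J proteins, the mitochondrial ones and those that passed, and from each list the 4 highest genes and the 3 most variable that passed over all lists. All 60 member IDs were found in the RefSeq gene table of assembly GRCr8, which served for names and neighbours; promoter windows and their coordinates are RefSeq's for GRCr8.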

Additional observations from a re-analysis of the deposited data

How the results depend on the processing

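No paired analysis was possible because the Control libraries are not analysed here; for the same reason the replicate block, DESeq2, filter and leave-out alternatives of ATR against Control were not run. Of all genes 3091 passed the chi-square test of spread, and 1531 to 2224 when 1 library was left out. Of the members 16 passed, and 8 to 13 when 1 library was left out: 8 without ATR 1, 11 without ATR 2 and 13 without ATR 3. Leaving out a library removes reads and a degree of freedom. All genes passed in 11.9%, 14.6% and 17.3% of cases in those fits. Other scalings, read minimums and whole counts alone gave 11 to 17 members, and Hsp90aa1, Hsp90ab1, Hspa1a, Hspa8 and Hspa9 could not enter the last. Dnajb4 passed with DESeq2 size factors, with library totals and with at least 100 reads. Dnajc5b passed with at least 10 reads. The count at 1 TPM or more was 55 to 57 over the alternatives that kept that limit. It was 60 at a limit of 0.5 TPM and 51 at a limit of 5 TPM. Members tested were highest in ATR 1, 2 and 3 in 16, 21 and 22 cases by scaled CPM and in 22, 21 and 16 cases by TPM, so no order of the libraries holds on both scales. Depth limits Hspa12a, Hspa12b, Hspa1a and Dnajc5b, whose read numbers are small.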
